A study of Homo sapiens with 8 samples.

Results

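The 10 genes described here encode carrier proteins that hepatocytes release into blood plasma: ALB, TTR, RBP4, HPX, TF, VTN, AHSG, GC, SERPINA7 and APOH. They were taken by symbol, and all 10 were found among the 26716 genes of the table and among the 17715 genes with enough counts to be tested. The RNA came from HepG2, a line grown from a human liver tumour, and the poly(A) fraction of 8 libraries was sequenced as single reads of 50 bases. All cells received a mimic at 1 nM and an siRNA at 30 nM and were lysed 72 h later. NC received a control mimic and a control siRNA. The group miR-552-3p had the miR-552-3p mimic beside the control siRNA (mimic alone), siIPO8-NC had the importin8 siRNA beside the control mimic (siRNA alone), and in siIPO8-miR-552-3p the mimic and the importin8 siRNA were combined (both agents). Each group had 2 libraries, and the labels do not say whether these came from separate cultures, so that the spread behind a p-value may be technical. The labels name 1 siRNA and 1 mimic without a sequence, and no group without transfection is among these libraries. With 1 siRNA, effects of less importin8 and other effects of the siRNA cannot be told apart. A single transformed line stands in here for the hepatocyte. The study's title concerns the nuclear receptors FXR and LXR and liver metabolism. For the carrier genes, the design asks what the mimic changes, what the importin8 siRNA changes, and whether the mimic's effect differs between control and importin8 siRNA.

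Carrier proteins keep poorly soluble or reactive molecules in solution in plasma and deliver them to receptors on distant cells. The liver makes nearly all of them through the classical secretory pathway, and their genes are driven by transcription factors of the hepatocyte such as HNF4A and members of the C/EBP and FOXA families. TTR and SERPINA7 carry thyroid hormone, and RBP4 carries retinol in a complex with TTR. ALB binds fatty acids, bilirubin and many drugs, and GC, a relative of ALB in sequence, carries vitamin D. HPX takes up free heme and TF carries iron. AHSG holds calcium phosphate in solution, VTN binds integrins, and APOH binds anionic phospholipids. A microRNA pairs through its seed with messages that are then degraded or not translated, and importin8 is a nuclear import receptor that has been linked to Argonaute proteins.

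The mature microRNA that the mimic is named for is shown because its seed defines the match that was searched for in the carrier transcripts. Its position is chr1:34669614-34669634, minus strand (RefSeq, GRCh38.p14), and the capitals mark the seed, bases 2 to 8. The match to this seed in a message reads CACCTGT. Among 9 carrier genes, each represented by 1 GENCODE v29 coding transcript, 0 had this match in the 3′ UTR, against 15.2% of 18927 3′ UTRs of all genes, and the UTRs of the 9 had lengths of 93 to 1058 bases, where the median over all genes was 871. The shorter match ACCTGT was in the 3′ UTR of SERPINA7 alone among the 9, against 32.3% of 3′ UTRs of all genes. TF was left out of these counts because the coding transcript taken for it is 20602 bases long. For TF the deposited counts and FPKM imply 2435 to 2466 bases. The 3′ UTR of the transcript of 20602 bases, itself 18020 bases long, holds 4 matches. Over the whole transcript, among the same 9, RBP4 had 1 match and VTN had 2, all in coding sequence, and 28.9% of 19578 transcripts of all genes hold at least 1. The 3 matches are shown with 10 bases on each side, the match in capitals, numbered within each transcript.
hsa-miR-552-3p: aACAGGUGacugguuagacaa
RBP4 site 1: acctcgatggCACCTGTgctgacagct
VTN site 1: cctgagcagaCACCTGTtctgaaacct
VTN site 2: ttgtgcctgcCACCTGTgaacccatcc

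The libraries held 21608563 to 22102373 expected counts each, so that 3 counts corresponded to 0.131 to 0.144 CPM, the count scaled to library size after TMM normalization. IPO8, the siRNA target, was at 34.0 ± 0.951 CPM (SD, n = 2) in NC, 25.0 ± 0.541 with the mimic alone, 11.4 ± 0.0835 with the siRNA alone, and 7.97 ± 0.465 with both agents, which follows the siRNA labels. The mimic lowered IPO8 as well, with log2 fold changes of -0.44 with control siRNA and -0.52 with importin8 siRNA. Adjusted p-values were 0.00083 and 0.0022 in edgeR's quasi-likelihood test. The part of this fall in the mimic's effects was not tested. All 10 hepatocyte markers on the list, which include the carrier genes ALB, TTR, TF and AHSG, were detected in each group. Their summed level was 55390 to 60120 CPM in NC, 40810 to 41940 in miR-552-3p, 54930 to 57090 in siIPO8-NC and 61230 to 64970 in siIPO8-miR-552-3p. Of fibroblast markers LUM and DCN had no count in NC, miR-552-3p or siIPO8-NC. The summed level of 5 cholangiocyte markers was 893 to 952 CPM in NC, 2192 to 2241 in miR-552-3p, 688 to 694 in siIPO8-NC and 1060 to 1103 in siIPO8-miR-552-3p. That of 4 endothelial markers was 75.3 to 81.1, 28.7 to 30.7, 19.5 to 21.5 and 23.2 to 23.9 CPM in the same order. The summed level of the 3 blood cell markers in the table was 5.98 to 8.32, 124.5 to 136, 59.2 to 79.7 and 79.6 to 85.1 CPM, and that of 6 fibroblast markers was at most 19.8 CPM in each library. Of the 4 cholangiocyte markers tested, the mimic with control siRNA raised KRT19 (31.3 to 661 CPM) and SPP1 (369 to 1298). It lowered 2, among them SOX9 (397 to 174). Of the blood cell markers, CD68 rose from 6.66 to 117 CPM in that comparison and CD79A from 0.289 to 12.8. The part of these markers in the results on carrier genes was not tested. In NC, replicate 1 was above replicate 2 for 9 of the 10 carrier genes, and the median difference between the replicates was 0.28 on the log2 scale, against 0.17 over all tested genes. In the other groups replicate 1 was the higher for 6, 5 and 5 of the 10, so comparisons with NC rest on its less even pair.

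With control siRNA, the mimic lowered 8 of the 10 carrier genes and raised RBP4, while TF did not pass the test. GC, among the 8, had enough counts to be tested only through its NC libraries, which bears on all its calls against NC. Over all tested genes 58.4% were called in this comparison, 28.9% higher and 29.5% lower, at a Benjamini-Hochberg adjusted p under 0.05 in edgeR's quasi-likelihood test. The median log2 fold change of the 10 was -0.76, beside -0.01 over all tested genes. The NC and mimic libraries did not overlap for 9 of the 10, nor for 78.5% of all tested genes. In bulk RNA, fewer cells that express a gene and less RNA per cell cannot be told apart. With importin8 siRNA, the mimic lowered TTR, HPX, VTN and SERPINA7 and raised ALB, and 5 of the 10 did not pass. In that arm 31.7% of all tested genes were called, 15% higher and 16.7% lower, and the median of the 10 was -0.13.

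With the control mimic, the importin8 siRNA raised 6 of the 10 (TTR, RBP4, TF, VTN, AHSG and APOH) and lowered ALB, HPX and GC. In that comparison 47% of tested genes were called, 25.4% higher and 21.6% lower. Among the mimic libraries the importin8 siRNA raised 8 of the 10 and lowered 0, against 33.5% called, 17.3% higher and 16.2% lower. VTN and GC were those that did not pass (unadjusted p = 0.96 and 0.61 in edgeR's test). DESeq2 and limma-voom each called 7 higher and 0 lower. Of the 17715 tested genes they called 4277 and 5916 in that order, of which 2243 and 2983 were higher. The mimic's effect differed between the siRNA arms for 6 of the 10 (ALB, TTR, HPX, AHSG, GC and SERPINA7), each with a less negative or a positive value with importin8 siRNA. GC is counted here although it passed the count filter only through NC. For the difference between the mimic effects 31.3% of tested genes were called, 14.2% higher and 17.1% lower. The comparisons share libraries, so their counts are not independent of one another.

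**Figure D1:**
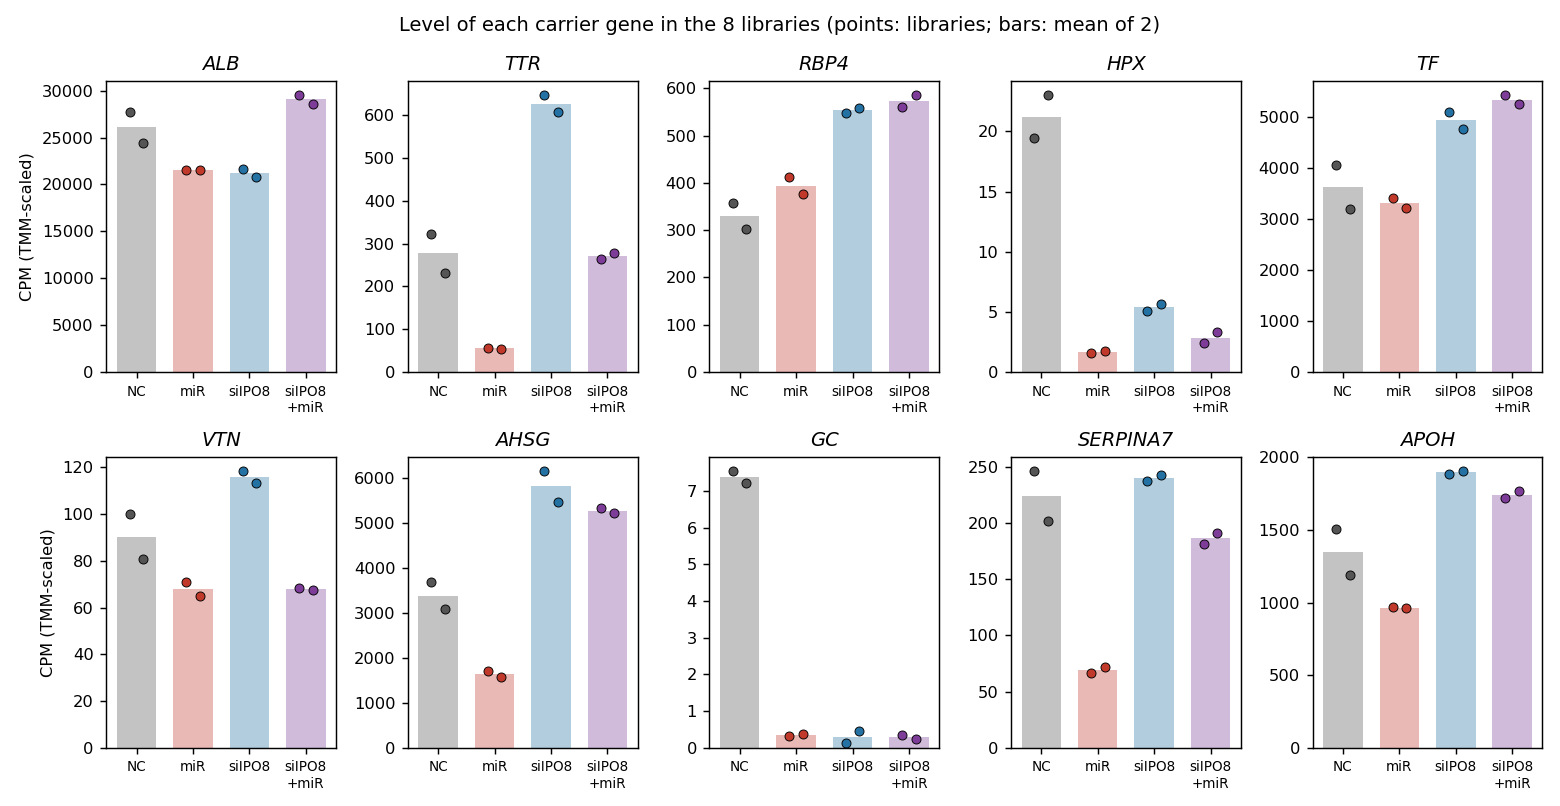
CPM of each carrier gene (y axis, from 0) in the 4 groups (x axis; siIPO8 stands for siIPO8-NC); points are libraries and bars the mean of 2. The mimic group is lowest for TTR, HPX, AHSG, SERPINA7 and APOH, and GC is near 0 in the 3 groups other than NC.

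**Figure D2:**
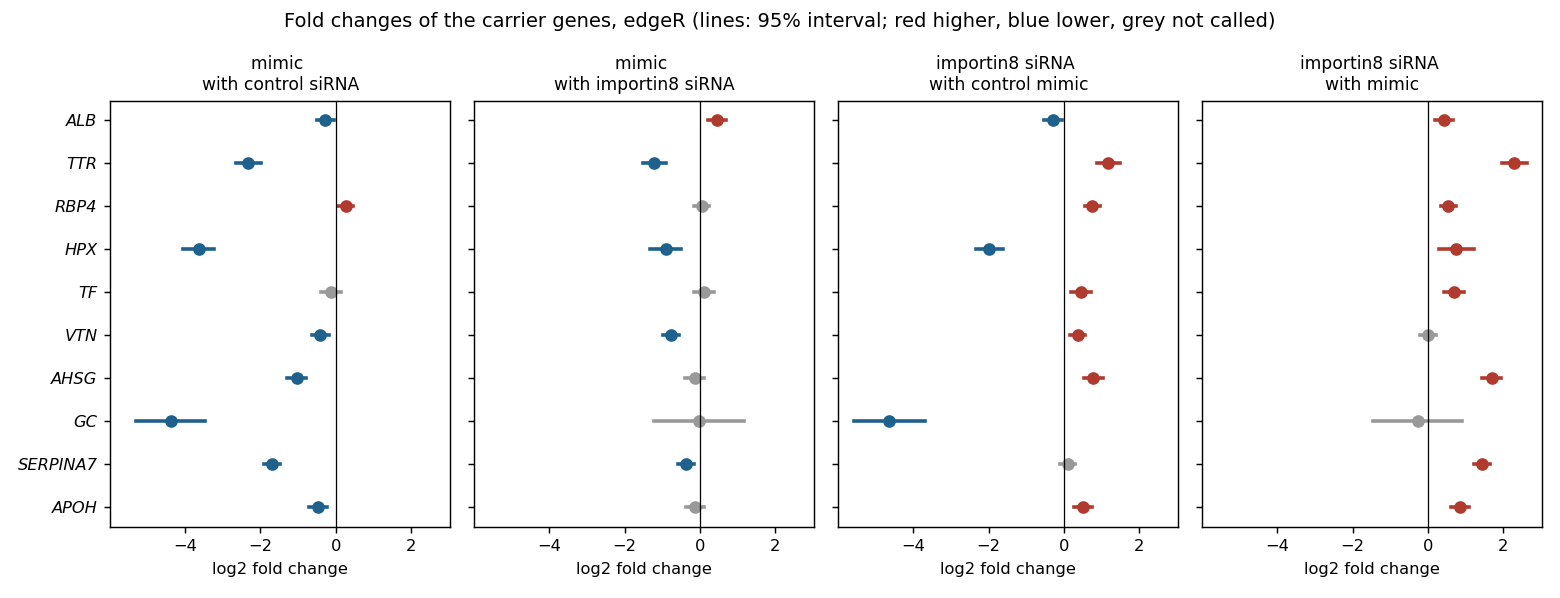
Log2 fold changes (x axis) of the 10 genes in 4 comparisons, with 95% intervals as lines; red was called higher, blue lower and grey not called. In the second panel 5 of the 10 are grey, and in the fourth 8 are red and none is blue.

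TTR, which encodes transthyretin, moved furthest among the thyroid hormone and retinol carriers. Its level was 322 and 232 CPM in the NC libraries, 57.0 and 54.0 with the mimic alone, 647 and 607 with the siRNA alone, and 265 and 279 with both agents. The mimic libraries were lowest and those with importin8 siRNA alone highest, and only NC and the group with both agents overlapped. The mimic changed TTR by -2.32 on the log2 scale with control siRNA (SE 0.14; adjusted p = 2e-06), to 20.01% of its NC mean, while under importin8 siRNA the change was -1.21 (SE 0.13; adjusted p = 3e-04), 2.31-fold lower. The importin8 siRNA raised it 2.26-fold with the control mimic (adjusted p = 0.00016) and 4.90-fold with the mimic (adjusted p = 1.1e-05). These 2 mimic effects differed by 1.12 (SE 0.19; adjusted p = 0.003). Between miR-552-3p and siIPO8-NC, the ends of its range, TTR spanned 11.3-fold. With both agents it stood at 98.04% of its NC mean, a difference of -0.03 (95% interval -0.34 to 0.28; adjusted p = 0.88), whose sign depended on the NC library: it was 0.23 (adjusted p = 0.0206) without NC replicate 1 and -0.24 (adjusted p = 0.0164) without NC replicate 2. The gene is annotated on chromosome 18 from 31557010 to 31599021, plus strand in GENCODE v29 (GRCh38), and overlaps 0 other genes there.

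SERPINA7 encodes thyroxine-binding globulin, a serpin that carries hormone and does not inhibit proteases. It was at 246 and 201 CPM in NC, 66.3 and 71.8 with the mimic alone, 237 and 242 with the siRNA alone, and 182 and 191 with both agents. The mimic libraries stood apart from the rest, and NC overlapped only with siIPO8-NC. With control siRNA the mimic lowered it 3.24-fold (log2 fold change -1.70; SE 0.10; adjusted p = 2.3e-07). With importin8 siRNA the value was -0.36 (adjusted p = 0.013), a call lost in the fits without each of the 4 libraries compared: -0.38 and -0.35 without siIPO8-NC replicate 1 or 2, and -0.32 and -0.39 without siIPO8-miR-552-3p replicate 1 or 2 (adjusted p = 0.0505 to 0.0974 over the 4 fits). The difference between the mimic effects was 1.33 (SE 0.13; adjusted p = 5.7e-05). The importin8 siRNA raised SERPINA7 2.70-fold among mimic libraries (adjusted p = 4.6e-06), and with the control mimic the value was 0.10 (95% interval -0.11 to 0.30; adjusted p = 0.41), or 0.24 (adjusted p = 0.0183) without NC replicate 1. SERPINA7 is annotated on chromosome X from 106032442 to 106038738, minus strand.

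RBP4, the retinol carrier that travels with TTR, rose with the importin8 siRNA in both mimic arms. Its level was 358 and 303 CPM in NC, 412 and 377 with the mimic alone, 548 and 559 with the siRNA alone, and 560 and 586 with both agents. The 4 libraries with importin8 siRNA were all above the 4 without. The importin8 siRNA raised it 1.68-fold with the control mimic (log2 fold change 0.74; SE 0.09; adjusted p = 8.4e-05) and 1.45-fold with the mimic (adjusted p = 0.0011). The mimic's rise of 0.26 with control siRNA (adjusted p = 0.031) lost its call in 6 of 20 alternatives. Among them were the fits without NC replicate 2, at 0.14, and without miR-552-3p replicate 1, at 0.19. Upper quartile scaling gave 0.20 (adjusted p = 0.0726), and limma trend fits of log2 FPKM gave 0.19 (adjusted p = 0.0778 and 0.0804). A fit of only the libraries compared gave 0.26 (adjusted p = 0.08). Under importin8 siRNA the mimic's value was 0.05 (95% interval -0.15 to 0.25; adjusted p = 0.72). The difference of -0.21 between the mimic effects (SE 0.13; adjusted p = 0.26) was -0.32 and called without NC replicate 1 (adjusted p = 0.026). RBP4 is annotated on chromosome 10 from 93591687 to 93601744, minus strand and overlaps FFAR4 on the plus strand. The library protocol names no step that marks strand, so reads in the overlap cannot be assigned by strand.

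ALB, the main protein of plasma, had the highest level among the 10 and the narrowest range. It stood at 27700 and 24470 CPM in NC, 21520 and 21590 with the mimic alone, 21650 and 20780 with the siRNA alone, and 29550 and 28590 with both agents. Each agent alone went with a lower level than in NC, and the libraries with both agents were the highest of the 8. With control siRNA the mimic's value was -0.28 (SE 0.10; adjusted p = 0.045), 1.21-fold lower, and with importin8 siRNA it was 0.45 (SE 0.10; adjusted p = 0.0085), 1.37-fold higher. The difference between these effects of opposite sign was 0.73 (SE 0.15; adjusted p = 0.0042), and it held in all 19 alternatives tried. The importin8 siRNA changed ALB by -0.30 with the control mimic (adjusted p = 0.039) and by 0.43 with the mimic (adjusted p = 0.0099).

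The single calls on ALB were near the threshold. Those of each agent alone against NC were each lost in 7 of 20 alternatives, among them the 6 fits without a single miR-552-3p, siIPO8-NC or siIPO8-miR-552-3p library, with values of -0.28 to -0.26 (adjusted p = 0.0698 to 0.156) for the mimic and of -0.32 to -0.26 (adjusted p = 0.0574 to 0.206) for the siRNA. The rise with the mimic under importin8 siRNA was 0.49 and 0.43 without siIPO8-NC replicate 1 or 2 (adjusted p = 0.0503 and 0.0834) and 0.44 without siIPO8-miR-552-3p replicate 1 (adjusted p = 0.0506). The siRNA's rise among mimic libraries was 0.43 and 0.44 without miR-552-3p replicate 1 or 2 (adjusted p = 0.062 and 0.0594) and 0.41 without siIPO8-miR-552-3p replicate 1 (adjusted p = 0.0596). ALB is annotated on chromosome 4 from 73397114 to 73421412, plus strand.

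GC encodes the vitamin D-binding protein and is annotated on the same chromosome as ALB (71741693 to 71804041, minus strand), where an rRNA pseudogene overlaps it. It was the least abundant of the 10. Its expected counts were 168.34 and 165 in NC, 7.29 and 8.2 with the mimic alone, 3 and 9.54 with the siRNA alone, and 6.76 and 4.63 with both agents. In CPM, NC was at 7.39 ± 0.233 and the other groups at 0.348 ± 0.0399, 0.292 ± 0.223 and 0.287 ± 0.0702 (SD, n = 2), and no library of these came near NC. Against NC the summed counts were 4.71% in miR-552-3p (exact 95% interval 2.61 to 7.88%), 3.95% in siIPO8-NC (2.08 to 6.85%) and 3.55% in siIPO8-miR-552-3p (1.76 to 6.44%), intervals that cover counting error only. The mimic lowered GC with control siRNA by a fitted log2 value of -4.39 (SE 0.41; adjusted p = 8.3e-06), and the importin8 siRNA with the control mimic had -4.64 (SE 0.42; adjusted p = 1.3e-05). With importin8 siRNA the mimic's value was -0.03 (95% interval -1.23 to 1.18; adjusted p = 0.98), where counts under 10 per library leave either direction within the interval. The difference between the mimic effects was 4.36 (SE 0.70; adjusted p = 0.0011). GC passed the count filter only through its NC libraries, and both groups with importin8 siRNA were near 0. Its calls against NC and this difference therefore depend on that selection and are not independent support. On the log2(FPKM + 1) scale, which shrinks low values, the mimic's effect with control siRNA was -1.96 and the difference 1.96.

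HPX encodes hemopexin, the plasma scavenger of heme. It was at 19.4 and 23.0 CPM in NC, 1.60 and 1.79 with the mimic alone, 5.11 and 5.66 with the siRNA alone, and 2.40 and 3.32 with both agents. No group overlapped another. The mimic with control siRNA lowered it 12.5-fold (log2 fold change -3.64; SE 0.19; adjusted p = 1.1e-07), and the importin8 siRNA with the control mimic lowered it 3.94-fold (-1.98; SE 0.16; adjusted p = 7.5e-06). With importin8 siRNA the mimic's effect was -0.91 (SE 0.18; adjusted p = 0.0043), which without siIPO8-miR-552-3p replicate 1 was -0.69 (adjusted p = 0.0502). The effects differed by 2.73 (SE 0.27; adjusted p = 4.8e-05). Among mimic libraries the siRNA's value was 0.75 (adjusted p = 0.02), and this call was lost in DESeq2 (adjusted p = 0.0875), in limma-voom (adjusted p = 0.0969), without miR-552-3p replicate 1 or 2, at 0.68 and 0.84 (adjusted p = 0.109 and 0.0545), and without siIPO8-miR-552-3p replicate 2, where it was 0.51 (adjusted p = 0.172). HPX is annotated on chromosome 11 from 6431049 to 6442617, minus strand.

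TF, the iron carrier transferrin, answered to the siRNA and not detectably to the mimic. Its level was 4048 and 3187 CPM in NC, 3411 and 3210 with the mimic alone, 5097 and 4759 with the siRNA alone, and 5424 and 5241 with both agents. The 4 libraries with importin8 siRNA were above the 4 without it, while NC and the mimic group overlapped. The siRNA raised TF 1.36-fold with the control mimic (log2 fold change 0.45; SE 0.12; adjusted p = 0.0099) and 1.61-fold with the mimic (0.69; adjusted p = 0.0013). The former was 0.40 (adjusted p = 0.0711) without siIPO8-NC replicate 1, and 0.29 without NC replicate 2. The mimic's values were -0.13 with control siRNA (95% interval -0.39 to 0.13; adjusted p = 0.37), whose sign and call depended on the NC library, at 0.05 without NC replicate 1 and -0.29 (adjusted p = 0.0093) without NC replicate 2, and 0.11 with importin8 siRNA (95% interval -0.15 to 0.37; adjusted p = 0.51). The difference of 0.24 did not pass (adjusted p = 0.31), while without NC replicate 2 it was 0.41 (adjusted p = 0.0128). In the annotation TF spans chromosome 3 from 133745956 to 133796640 on the plus strand and overlaps SRPRB and 2 pseudogenes on that strand, so that the counting may have shared reads among them.

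AHSG encodes fetuin-A, an inhibitor of mineral deposition. It was at 3681 and 3076 CPM in NC, 1716 and 1566 with the mimic alone, 6160 and 5463 with the siRNA alone, and 5330 and 5211 with both agents. The groups did not overlap, with the mimic group lowest and siIPO8-NC highest. The mimic lowered it 2.06-fold with control siRNA (log2 fold change -1.04; SE 0.11; adjusted p = 2.2e-05). With importin8 siRNA the value was -0.14 (95% interval -0.39 to 0.11; adjusted p = 0.38), and the difference of 0.90 was called (SE 0.16; adjusted p = 0.0017). AHSG rose with the importin8 siRNA, 1.72-fold with the control mimic (adjusted p = 0.00026) and 3.21-fold with the mimic (adjusted p = 4.4e-06). The gene is annotated on chromosome 3 from 186612923 to 186621318, plus strand, and the antisense gene AC068631.1 overlaps it.

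APOH, the phospholipid-binding beta-2-glycoprotein, was at 1508 and 1187 CPM in NC, 968 and 964 with the mimic alone, 1888 and 1909 with the siRNA alone, and 1720 and 1768 with both agents. Its groups followed the order of AHSG without overlap. The mimic lowered it 1.40-fold with control siRNA (log2 fold change -0.48; SE 0.11; adjusted p = 0.003), a value of -0.30 without NC replicate 1, and the siRNA raised it 1.41-fold with the control mimic (adjusted p = 0.0034) and 1.81-fold with the mimic (adjusted p = 2e-04). In the importin8 siRNA arm the mimic's value was -0.12 (95% interval -0.36 to 0.11; adjusted p = 0.43). The difference between the mimic effects was 0.36 (adjusted p = 0.1), and it passed in DESeq2 (0.36; adjusted p = 0.0177) and without NC replicate 2 (0.52; adjusted p = 0.0011). APOH is annotated on chromosome 17 from 66212033 to 66256525, minus strand.

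VTN, the integrin ligand vitronectin, fell with the mimic in both siRNA arms. Its level was 99.8 and 80.8 CPM in NC, 71.0 and 65.1 with the mimic alone, 119 and 113 with the siRNA alone, and 68.2 and 67.4 with both agents. The 4 mimic libraries lay together at the bottom, below all libraries with the control mimic. The mimic changed VTN by -0.41 with control siRNA (SE 0.10; adjusted p = 0.0044), or -0.25 without NC replicate 1, and under importin8 siRNA by -0.77 (SE 0.09; adjusted p = 0.00026). The difference of -0.37 did not pass (SE 0.13; adjusted p = 0.066), while without NC replicate 1 it was -0.51 (adjusted p = 0.00247). The siRNA raised VTN 1.28-fold with the control mimic (0.36; adjusted p = 0.01), a value of 0.33 (adjusted p = 0.0622) without siIPO8-NC replicate 1 and of 0.22 without NC replicate 2. With the mimic its value was -0.01 (95% interval -0.22 to 0.21; adjusted p = 0.98). VTN is annotated on chromosome 17 from 28367276 to 28373091, minus strand and overlaps 3 annotated genes, among them SARM1 on the other strand. It and RBP4 hold the coding matches to the seed shown above, and the part of these matches in the mimic's effects was not tested.

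**Figure D3:**
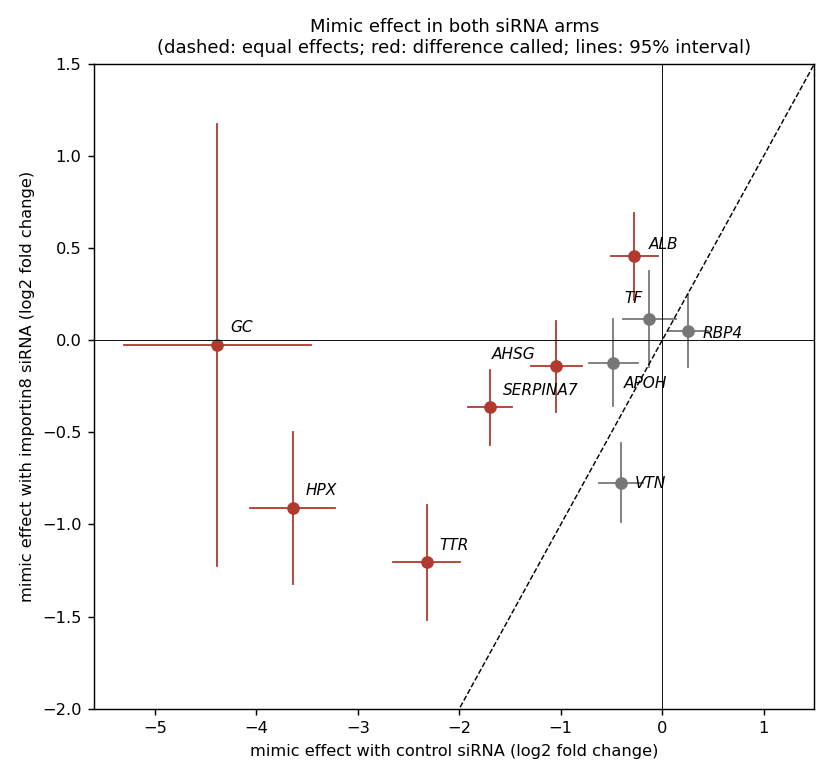
Mimic effect with control siRNA (x axis) against that with importin8 siRNA (y axis), as log2 fold changes with 95% intervals; the dashed line marks equal effects and red the 6 genes whose difference was called. The red points lie above the dashed line, and VTN is the gene below it by 0.37 and RBP4 by 0.21.

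Compared with NC, the group with both agents had 4 carrier genes higher (RBP4 at 0.80, AHSG at 0.64, TF at 0.56 and APOH at 0.37) and 4 lower (GC at -4.66, HPX at -2.89, VTN at -0.41 and SERPINA7 at -0.27), against 56.3% of tested genes called, 28.5% higher and 27.8% lower. ALB at 0.16 (adjusted p = 0.23) and TTR did not pass. The call on SERPINA7 was lost without NC replicate 1, at -0.11 (adjusted p = 0.205), and in the fits without any 1 of the 4 siIPO8-NC and siIPO8-miR-552-3p libraries, at -0.29 to -0.22 (adjusted p = 0.0527 to 0.164). That on APOH was 0.37 (adjusted p = 0.0524) without siIPO8-miR-552-3p replicate 2 and 0.21 without NC replicate 2, VTN was at -0.25 without NC replicate 1, and ALB passed at 0.25 (adjusted p = 0.0147) without NC replicate 1. Set directly against each other, the mimic alone had 8 of the 10 lower than the importin8 siRNA alone and 0 higher, against 50.2% called, 24.4% higher and 25.8% lower. DESeq2 and limma-voom each called 8 lower and 0 higher. Of the 17715 tested genes they called 7268 and 9006 in that order, of which 3570 and 4414 were higher. The values ran from -3.50 for TTR, -1.82 for AHSG and -1.80 for SERPINA7 to -0.49 for RBP4, and ALB at 0.02 (95% interval -0.21 to 0.26) and GC at 0.25 (95% interval -0.91 to 1.41) did not pass.

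Promoter windows from 250 bases before to 50 after the annotated start were taken from RefSeq (GRCh38.p14) for 8 of the 10 genes, all but TTR and GC. The windows of SERPINA7, AHSG and HPX are shown because these genes fell with the mimic and their mimic effects differed between the siRNA arms, and that of ALB because its effects had opposite signs. Capitals mark the motifs searched on both strands, and in SERPINA7 a GTTAAT match shares 1 base with a reverse match of TATAAA. The core TTGCNNAA bound by C/EBP proteins was in 7 of the 8 genes, against 10.5% of 35116 windows of all genes. The run GTTAAT was in 3 (ALB, SERPINA7 and APOH; 6.88% of windows), the nuclear receptor half-site AGGTCA in 3 (HPX, TF and VTN; 13.8%), TATAAA in 2 (RBP4 and SERPINA7; 11.5%), and the HNF4 core CAAAGTC in 1 (AHSG; 3.37%). The FOXA core TGTTTAC (3.42%) and the seed match CACCTGT (4.11%) were in 0. Some genes have more than 1 window, and a match is a run of letters only.
SERPINA7, chrX:106038678-106038977, minus strand: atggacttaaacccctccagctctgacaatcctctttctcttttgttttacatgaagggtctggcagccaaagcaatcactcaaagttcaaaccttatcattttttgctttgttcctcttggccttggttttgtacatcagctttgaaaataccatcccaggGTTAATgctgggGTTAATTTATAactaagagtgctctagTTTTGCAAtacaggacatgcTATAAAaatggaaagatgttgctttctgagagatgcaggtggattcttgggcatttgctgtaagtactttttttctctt
AHSG, chr3:186612810-186613109, plus strand: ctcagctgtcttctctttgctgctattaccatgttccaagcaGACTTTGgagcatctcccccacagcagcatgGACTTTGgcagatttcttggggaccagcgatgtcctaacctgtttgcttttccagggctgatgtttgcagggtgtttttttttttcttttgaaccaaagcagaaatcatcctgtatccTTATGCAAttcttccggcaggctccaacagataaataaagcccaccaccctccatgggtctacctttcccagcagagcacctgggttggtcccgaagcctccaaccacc
HPX, chr11:6440938-6441237, minus strand: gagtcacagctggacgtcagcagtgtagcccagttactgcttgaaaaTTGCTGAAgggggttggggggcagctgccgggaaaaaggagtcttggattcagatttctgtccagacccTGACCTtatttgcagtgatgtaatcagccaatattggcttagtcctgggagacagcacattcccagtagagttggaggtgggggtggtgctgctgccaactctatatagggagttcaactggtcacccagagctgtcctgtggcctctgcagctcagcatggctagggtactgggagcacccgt
ALB, chr4:73404037-73404336, plus strand: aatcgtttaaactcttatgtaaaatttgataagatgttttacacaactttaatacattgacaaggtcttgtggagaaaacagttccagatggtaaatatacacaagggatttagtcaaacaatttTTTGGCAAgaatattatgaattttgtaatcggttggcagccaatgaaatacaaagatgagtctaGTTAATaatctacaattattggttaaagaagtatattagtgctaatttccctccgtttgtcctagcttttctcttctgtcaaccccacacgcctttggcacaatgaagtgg

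Between genes, levels were compared per length in the deposited FPKM. ALB led in every group, from 9088 ± 44.0 FPKM (SD, n = 2) in miR-552-3p to 12040 ± 161 in siIPO8-miR-552-3p, and ranked 2 or 3 among all genes of the table. AHSG came next in NC with 2047 ± 188 FPKM, followed by TF with 1519 ± 217 and APOH with 1173 ± 157. RBP4 was at 376 ± 31.7 FPKM and TTR at 314 ± 61.3, a gap smaller than the NC spread of TTR. SERPINA7 at 136 ± 14.1, VTN at 55.7 ± 6.37, HPX at 13.6 ± 2.07 and GC at 4.50 ± 0.127 completed the order. With the mimic alone AHSG dropped behind TF, 950 ± 68.1 against 1334 ± 66.7 FPKM, and with importin8 siRNA alone TTR passed RBP4, 703 ± 26.5 against 622 ± 12.6 FPKM. SERPINA7 and VTN were level with each other in miR-552-3p, at 41.1 ± 2.29 and 40.2 ± 2.78 FPKM.

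**Figure D4:**
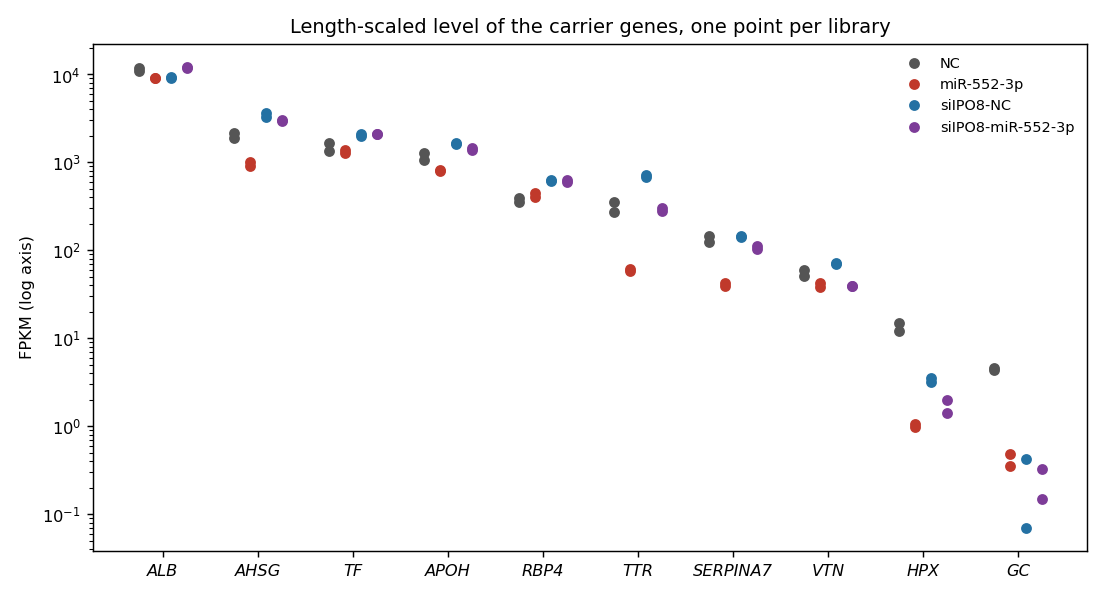
FPKM of the carrier genes (log axis) by library, with the genes ordered by their mean over 8 libraries and colours for the groups. ALB is the highest in all libraries, while HPX and GC are the lowest in each group.

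The 10 genes together took 3.64 ± 0.254% of all counts in NC, 2.77 ± 0.0431% with the mimic alone, 3.60 ± 0.110% with the siRNA alone, and 4.11 ± 0.0382% with both agents (SD, n = 2). The mimic libraries were lowest and those with both agents highest, and NC overlapped with siIPO8-NC. ALB made up 73.8% of this share in NC, 76.8% with the mimic alone, 60.0% with the siRNA alone, and 68.4% with both agents. Without ALB the other 9 took 0.956 ± 0.112%, 0.641 ± 0.0323%, 1.44 ± 0.0636% and 1.30% in the same order, so the groups with importin8 siRNA were the highest. The denominator includes a gene with no name that held 6.90 to 11.6% of the counts of a library.

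**Figure D5:**
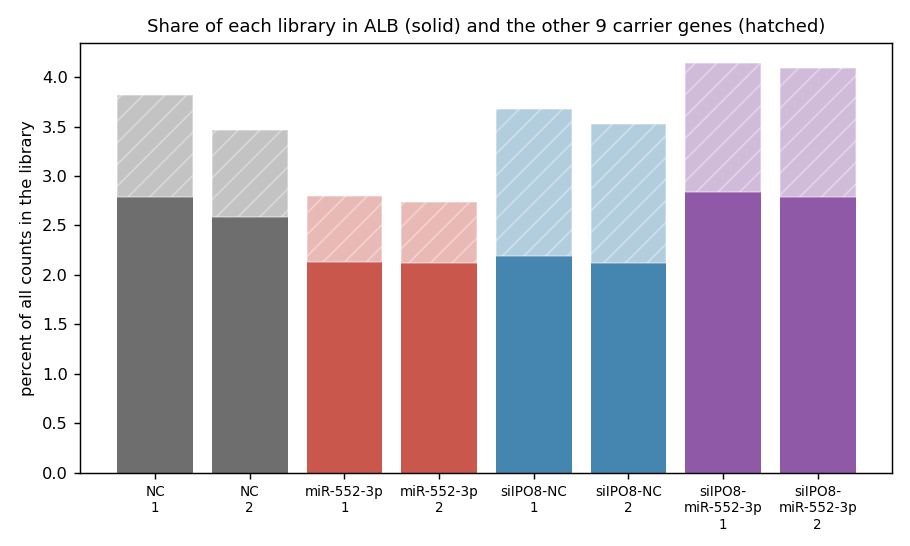
Percent of all counts (y axis, from 0) in ALB (solid) and in the other 9 carrier genes (hatched) in each of the 8 libraries. The whole bars run from 2.73% to 4.14%, with both mimic libraries lowest.

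Among the 10, the patterns most alike over the 8 libraries were those of RBP4 and TF, which differed by 0.15 (root mean square of log2 CPM centred on each gene), and TF and APOH, at 0.16, followed by RBP4 and APOH, at 0.27. This distance is not scaled to a gene's range, so genes that change little come out close whatever their direction. ALB and TF were at 0.29, although the importin8 siRNA with the control mimic lowered ALB and raised TF. Over 10866 genes with a mean of at least 100 counts, the nearest to TF was AFP at 0.04, the fetal relative of ALB, and the nearest to SERPINA7 was ITIH3 at 0.06, a heavy chain of a plasma protease inhibitor. The nearest to RBP4 was HEBP2 at 0.03, to APOH FAM13C at 0.06, to VTN TSN at 0.07 and to ALB TBC1D8B at 0.07. HPX lay nearest to FAM20A at 0.15, AHSG to CDC45 at 0.17, TTR to SOAT2 at 0.18 and GC to AKR1B1 at 0.40. AFP itself rose with the importin8 siRNA from 8500 ± 1422 to 12390 ± 423 CPM with the control mimic (adjusted p = 0.0038) and from 8255 ± 228 to 12880 ± 179 CPM with the mimic (adjusted p = 0.0023).

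Other plasma carriers and binding proteins also moved in both directions. Of 21 tested, the mimic with control siRNA lowered 11 and raised 6, and with importin8 siRNA it lowered 7 and raised 5. The importin8 siRNA raised 11 and lowered 5 with the control mimic, and raised 13 and lowered 2 with the mimic. SERPINA6, the cortisol carrier and a relative of SERPINA7, fell from 471 to 28.7 CPM with the mimic (log2 fold change -4.04; adjusted p = 6.1e-10). IGFBP1, a carrier of insulin-like growth factors, rose from 67.4 to 3540 CPM (5.72; adjusted p = 6.3e-05). The drug-binding orosomucoids ORM1 and ORM2 rose with the importin8 siRNA, from 61.4 to 318 and from 57.0 to 213 CPM (adjusted p = 4e-07 and 1.8e-07).

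The other SERPINA genes shared the fall of SERPINA7 with the mimic. All 6 tested (SERPINA1, SERPINA3, SERPINA4, SERPINA5, SERPINA6 and SERPINA10) were lower with control siRNA, with a median of -1.69, and the difference between the mimic effects was higher for all 6, with a median of 2.03. With importin8 siRNA 3 fell and SERPINA3 rose, from 313 to 596 CPM (0.93; adjusted p = 5.6e-05). Unlike SERPINA7, 5 of these 6 fell with the importin8 siRNA alone, among them SERPINA5 from 1102 to 415 CPM (adjusted p = 2.5e-07), and no test compared them with SERPINA7.

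Receptors and partners of the carriers were split. Of 19 tested, 8 rose and 5 fell with the mimic and control siRNA, and 3 rose and 6 fell with the mimic and importin8 siRNA. FCGRT, the receptor that rescues ALB from degradation, fell from 132 to 34.0 CPM in the first (-1.96; adjusted p = 1.5e-08) and from 64.2 to 32.4 in the second (-0.99; adjusted p = 1.5e-05). TFR2, a sensor of iron-loaded TF, fell from 93.4 to 12.6 CPM (-2.88; adjusted p = 3.6e-09) and from 66.8 to 29.6 (-1.18; adjusted p = 7e-06).

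Of 18 genes that handle the carried molecules inside cells, the mimic with control siRNA raised 8 and lowered 6, and the importin8 siRNA with the control mimic raised 3 and lowered 3. CYP24A1, which inactivates vitamin D, rose from 6.77 to 142 CPM with the mimic (4.39; adjusted p = 6.3e-10) and to 65.0 with the importin8 siRNA (3.26; adjusted p = 1.5e-08). RBP5, an intracellular retinol-binding protein, fell from 15.6 to 1.04 CPM with the mimic (-3.90; adjusted p = 5.8e-08).

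Hepatocyte transcription factors fell more often than they rose with the mimic. Of 29 tested, 17 fell and 5 rose with control siRNA, and 16 fell and 6 rose with importin8 siRNA. The importin8 siRNA raised 12 and lowered 10 with the control mimic, and raised 16 and lowered 3 with the mimic. NR5A2, a nuclear receptor of liver genes, fell from 46.4 to 5.27 CPM with the mimic (-3.14; adjusted p = 4e-09) and to 8.17 with the importin8 siRNA (-2.51; adjusted p = 4.7e-08). GATA4 fell from 162 to 32.9 CPM with the mimic (-2.30; adjusted p = 8.3e-09), while CEBPB rose from 69.9 to 275 CPM (1.98; adjusted p = 8.1e-09). Among mimic libraries the importin8 siRNA raised CEBPA from 29.1 to 70.7 CPM (1.28; adjusted p = 4.1e-06).

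Genes of the secretory pathway, through which carriers leave the cell, rose more often than they fell. Of 40 tested, 20 rose and 6 fell with the mimic and control siRNA, and 22 rose and 3 fell with the mimic and importin8 siRNA. The chaperone gene HSPA5 rose from 118 to 529 CPM in the first (2.17; adjusted p = 1.2e-06) and from 126 to 322 in the second (1.35; adjusted p = 0.00011). With the siRNA 19 rose and 6 fell under the control mimic, and 18 rose and 5 fell under the mimic. SPCS2, a subunit of the signal peptidase, fell from 106 to 48.6 CPM with the siRNA and control mimic (-1.12; adjusted p = 1.7e-06). Counts of these lists are to be read against the shares of all tested genes given above, and no list was tested as a set.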

How the data were processed

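Expression was measured in 8 HepG2 libraries, each put in its group by its title, and the table's abbreviated column names were matched to the titles. Per the file headers, the deposited table gives an expected count and an expression value per gene and library, the latter read as FPKM from its values. The submitters' processing notes name HISAT2 2.0.4, Bowtie2 2.2.5, RSEM 1.2.8 and GRCh38.p12, with no role stated. Of the deposited expected counts 24.2 to 26.5% were whole numbers (tolerance 1e-06), as reads shared among genes give.

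Expected counts were rounded, filtered with filterByExpr, scaled by TMM (factors 0.961 to 1.06) and fitted together, with a mean per group and no replicate block, in edgeR 4.0.16 (R 4.3.3; quasi-likelihood F test, robust). The test was two-sided, and p-values were adjusted by Benjamini-Hochberg over 17715 genes. An approximate SE was taken by dividing the log2 fold change by the root of the F statistic. Within each group the counts of both replicates disagreed beyond sampling (chi-square over its degrees of freedom 4.30 to 9.80), so no pair was treated as a repeated deposit of 1 library. This does not show that the cultures were separate. The script was tested on simulated counts.

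Alternatives were DESeq2 1.42.0, voom and trend fits in limma 3.58.1, other scalings and filters, a replicate block and leaving out each library. FPKM served to compare levels between genes. Genes outside the 10 were named by a rule: up to 3 called genes of each list and comparison with the largest change, a mean of at least 100 counts and groups that do not overlap, and for each carrier gene the nearest pattern. The text gives a selection of these. The carrier genes, lists and tests were chosen with earlier results of these data known. Positions are those of GENCODE v29 (GRCh38), and promoter and microRNA sequences are from RefSeq (GRCh38.p14).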

Additional observations from a re-analysis of the deposited data

Results flagged for a closer look

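For 6 of the 10 carrier genes the mimic's effect differed between the siRNA arms in a test of the difference itself, edgeR's quasi-likelihood F test of the interaction, against 31.3% of all tested genes. The difference, with importin8 siRNA minus with control siRNA, was 4.36 for GC (adjusted p = 0.0011), 2.73 for HPX (adjusted p = 4.8e-05), 1.33 for SERPINA7 (adjusted p = 5.7e-05), 1.12 for TTR (adjusted p = 0.003), 0.90 for AHSG (adjusted p = 0.0017) and 0.73 for ALB (adjusted p = 0.0042). The value for GC sets a fall from 7.39 to 0.348 CPM against a pair of groups that were both already under 0.5 CPM. GC also passed the count filter only through NC, so this value is not independent support. For TTR the importin8 siRNA arm started from the higher level, 627 CPM against 277, and for HPX from the lower level, 5.39 CPM against 21.2. ALB was the gene among these 6 whose effects had opposite signs, -0.28 and 0.45.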

How the results depend on the processing

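Of 1387 single-gene values recomputed under alternatives, 1326 kept their side of the threshold and, where called, their direction, 47 lost a call, 13 gained one and 1 turned: TTR with both agents against both controls was 0.23 without NC replicate 1 and -0.24 without NC replicate 2. All 6 differences between mimic effects listed above kept their call in 19 of 19 alternatives. For GC the stricter count filter was again passed only through NC. The number of carrier genes called with the mimic under importin8 siRNA was 5. It fell when a siIPO8-NC or siIPO8-miR-552-3p library was left out, and so did the number over all tested genes. In such a fit an arm of 1 library is assumed to vary like the others. Without the gene with the most counts, the carrier share of the library was 4.11% in NC, 3.01% with the mimic alone, 3.93% with the siRNA alone and 4.43% with both agents. Ranked by CPM in place of FPKM, TF came ahead of AHSG in NC and with both agents, and TTR behind SERPINA7 and VTN with the mimic alone. Deviations of same-numbered libraries correlated at -0.00335 to 0.0867 between groups, which cannot exclude a pairing or a shared batch. With a replicate block, 9 and 5 carrier genes were called for the mimic with control and importin8 siRNA. For the siRNA with control mimic and mimic the counts were 9 and 8. The difference had 7, where VTN joined at -0.37 (adjusted p = 0.0249). Of the 17715 tested genes 10424 and 5847, 8496 and 6121, and 5786 were called in the same order. Without the block these numbers were 10341 and 5607, 8329 and 5934, and 5551. Depth limits GC, whose libraries outside NC held 3 to 9.54 counts.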
